A study of Mus musculus with 27 samples.

Results

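The genes described are those that carry and adjust Wnt signals at the cell surface, with 4 genes that Wnt signalling is known to switch on. They were taken by symbol: every Wnt, Fzd, Sfrp or Dkk gene with a number, and Lrp5, Lrp6, Ror1, Ror2, Wif1, Axin2, Nkd1, Notum, Lef1 and Lgr5. The rule found 47 of the 18193 genes that had a probe set of 1 gene on the array. They were 19 ligands, 10 Frizzled receptors, 4 co-receptors, 10 secreted antagonists and 4 output genes. Of these, 31 passed a filter on low signals that 13527 genes passed in all, and only those 31 were tested.

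Wnt proteins are secreted ligands that bind Frizzled receptors together with a co-receptor. With Lrp5 or Lrp6 the signal stabilises beta-catenin, which enters the nucleus and acts with TCF and LEF factors, and with Ror1 or Ror2 it acts without beta-catenin, on cell shape and movement. Sfrp proteins and Wif1 bind Wnt ligands outside the cell, some Dkk proteins act on the Lrp co-receptors, and Notum removes a lipid that the ligands need. In the young cerebellum these signals act in patterning and in the growth of neurons, and one group of human medulloblastomas is known for an active beta-catenin pathway and another for active Hedgehog signalling.

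RNA of mouse cerebellum was hybridised to 27 Affymetrix arrays, 21 of tumours and 6 of tissue without tumour. Tumours arose where cre turned on SmoM2, a Smoothened protein that signals without Hedgehog, under Math1-cre (3 arrays), Tlx3-cre (3), Olig2-tva-cre (7) or hGFAP-cre (6). A further 2 tumours came from Ptc1+/- mice, in which 1 of the 2 copies of the Patched gene, a brake on Smoothened, is lost. The 6 control arrays came from 2 Olig2-tva-cre:SmoM2, 1 hGFAP-cre:SmoM2, 2 Mxi1-cre:SmoM2 and 1 Ptc1+/- sample, so the controls carry alleles of the same kind as the tumours, and no tumour group had Mxi1-cre. Ages are not given in the sources used here. The groups are called by their driver below, as in Math1 tumours. The tumours are labelled biological replicates, but no label ties an array to an animal, and the p-values therefore reflect only how far these samples spread, which may be technical.

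Values are log2 signals after each array was rescaled, and differences are in log2 units, so that 1 unit is a change of 2-fold. Signals under a floor of 3.37 were raised to it, and the median of the whole table was 5.51. The arrays differed in brightness before rescaling, with 2% trimmed means from 42.58 to 205.96, and the 7 dimmest were all tumours (5 Olig2, 1 hGFAP and 1 Ptc1+/- array). All 10 cerebellar marker genes passed the filter, with control means from 4.18 (En1) to 12.53 (Gabra6). In tumours 2 of them were higher and 6 lower, and their summed signal was 26889 to 38641 in controls and 7619 to 16564 in tumours. Markers of granule neuron precursors were higher in tumours for 7 of 7 genes, those of mature granule neurons lower for 6 of 6, those of Purkinje cells lower for 6 of 6 tested, and those of microglia higher for 8 of 8. In whole tissue, fewer cells of a type and less RNA per cell cannot be told apart.

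Over all 5 tumour groups, 13 of the 31 tested genes were called against tissue without tumour, 9 higher and 4 lower (41.9%). Among all 13527 genes the share called was 52.4%, with 26.8% higher and 25.6% lower, so the share among the Wnt genes was no larger than that of the whole array. A gene was called when its limma p-value, adjusted by Benjamini-Hochberg over all genes, was under 0.05. The genes that rose were the antagonists Sfrp1 and Sfrp2, the receptors Fzd2, Fzd3, Fzd7 and Fzd10, the co-receptor Ror2 and the output genes Nkd1 and Lgr5. Those that fell were the ligand Wnt11, the receptors Fzd1 and Fzd4 and the co-receptor Ror1. Of the 31 genes, 10 passed the filter through tumour arrays alone (among them Sfrp1, Sfrp2, Fzd2 and Ror2) and none through control arrays alone, so genes low in controls were favoured by the filter. On the values without rescaling, where the median gene lay 0.34 lower in tumours (a difference of -0.34), the 13 calls were split into 6 higher and 7 lower, and 9 of them were calls of the rescaled values too.

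**Figure D1:**
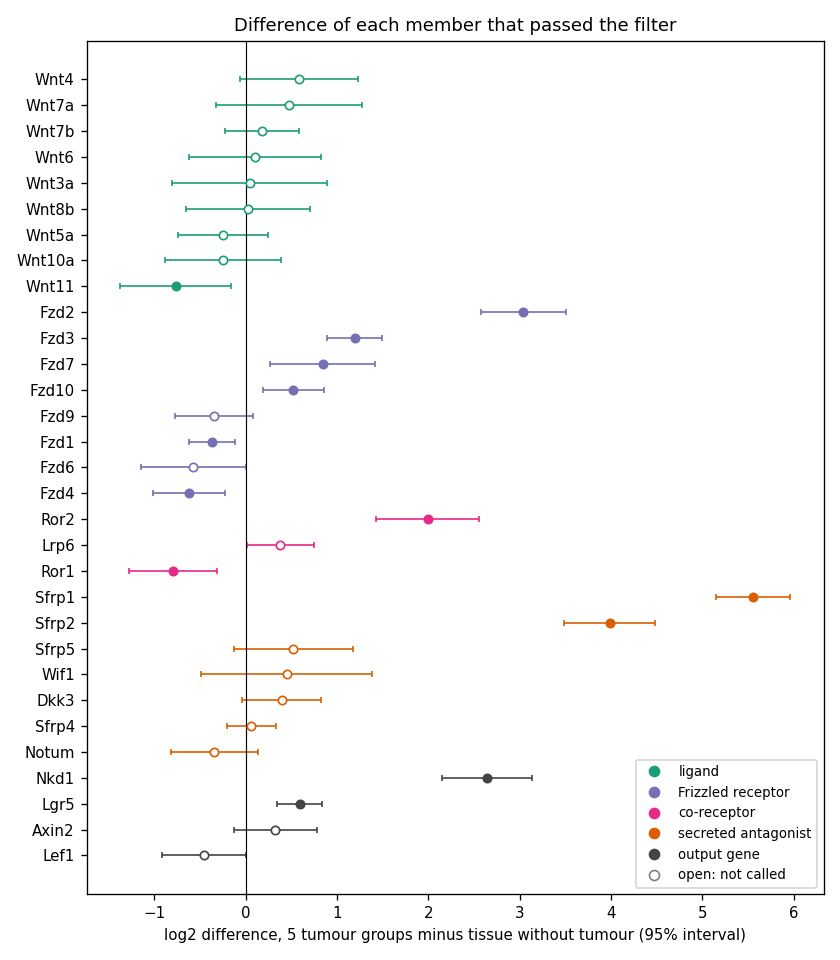
Log2 difference (x axis) between the 5 tumour groups, each with equal weight, and tissue without tumour for the 31 tested genes, ordered by role, with 95% confidence intervals of the limma fit. Filled points were called. Sfrp1 and Sfrp2 stand far to the right of all other antagonists, and 8 of the 9 ligands have open points.

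The largest differences belonged to secreted antagonists. Sfrp1, which binds Wnt ligands through a domain like that of the Frizzled receptors, ran from 4.89 to 6.44 in the 6 control arrays, with a median of 5.32. It stood at 11.77, 11.52 and 11.45 in the Math1 tumours, at 11.1, 11.28 and 11.26 in the Tlx3 tumours and at 10.98 and 11.25 in the Ptc1+/- tumours. The 7 Olig2 tumours ran from 10.52 to 11.85 (median 11.08), and the 6 hGFAP tumours from 10.24 to 10.63 (median 10.49). Every tumour array was thus high and every control array low, with a wide gap between them, and the hGFAP arrays were the lowest of the tumours on the whole. Over the tumour groups Sfrp1 was 5.56 higher (SE 0.20, 95% interval 5.15 to 5.96), a 47.0-fold difference with a limma adjusted p of 1.08e-18. All 5 of its probe sets rose, the least by 2.80. For 2 of them the control arrays were partly or wholly at the floor, and these rose by at least 6.34 (3 of 6 controls at the floor) and at least 5.14 (6 of 6).

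Sfrp2, a close relative of Sfrp1, ran from 4.89 to 6.20 in the control arrays (median 5.20). Signals were 9.74, 9.49 and 9.37 in Math1, 9.57, 9.94 and 9.33 in Tlx3 and 9.63 and 8.25 in Ptc1+/- tumours. The range was 9.01 to 10.46 in Olig2 tumours (median 9.55) and 7.94 to 9.75 in hGFAP tumours (median 8.93). Here too no tumour array reached down to the controls, though the hGFAP and Ptc1+/- groups were more spread out than the rest. The gene was 3.98 higher over the tumour groups (SE 0.24, 15.8-fold, limma adjusted p = 5.59e-14).

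No other antagonist was called over all tumours. Sfrp4, Sfrp5, Dkk3, Wif1 and Notum had differences of 0.06, 0.52, 0.40, 0.45 and -0.34. Among the single groups, Sfrp5 was called in hGFAP tumours (1.09 higher, limma adjusted p = 0.0239), Wif1 in Olig2 tumours (1.68 higher, adjusted p = 0.00987) and Notum, described with the output genes, in Tlx3 tumours. The Sfrp5 values of the controls had a median of 5.95 and a mean of 5.40, with control replicate 6 at the floor. Without that array the difference over all tumours was 0.11 (adjusted p = 0.756), and Sfrp5 was no longer called in hGFAP tumours. That call was also lost without control replicate 4, hGFAP replicate 2 or hGFAP replicate 4. Wif1 was at the floor on 3 of 6 control arrays and 1 of 7 Olig2 arrays, so that its difference is set in part by the floor. It passed the filter through 4 Olig2 arrays and 1 hGFAP array and no control array, that is, through the group in which it was called. Whether those groups differ from the other tumours in these genes is given with the comparisons between tumour groups. Dkk1, Dkk2 and Dkk4 did not pass the filter and reached at most 5.22, 4.29 and 4.75 on any array.

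Fibroblasts and cells of the meninges and vessel walls are also known to make Sfrp proteins. Of 10 markers of such cells, 3 were higher and 5 lower in tumours, and their summed signal was 5630 to 9931 in control arrays and 1320 to 4547 in tumour arrays. Those higher were Col3a1 (1.11), Lum (0.91) and Dcn (0.55). Those lower were Ptgds (-2.85), Pdgfrb (-1.54), Slc6a13 (-1.11), Rgs5 (-0.55) and Foxc1 (-0.54). Ptgds was the brightest of the 10 in controls (mean 12.61), so the sum follows it most. The granule neuron precursor markers summed to 265 to 713 in controls and to 5900 to 20839 in tumours, and so moved with Sfrp1 and Sfrp2. So did markers of microglia (8 of 8 higher, sums of 1139 to 1684 in controls and 3499 to 10774 in tumours). Those of oligodendrocyte precursors also rose (4 of 5 higher, 0 lower, sums of 558 to 1084 and 1833 to 5166). Every tested marker of mature granule neurons, Purkinje cells, GABAergic interneurons and oligodendrocytes was lower. The part of any of these cell types in the Sfrp1 and Sfrp2 differences was not tested.

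**Figure D2:**
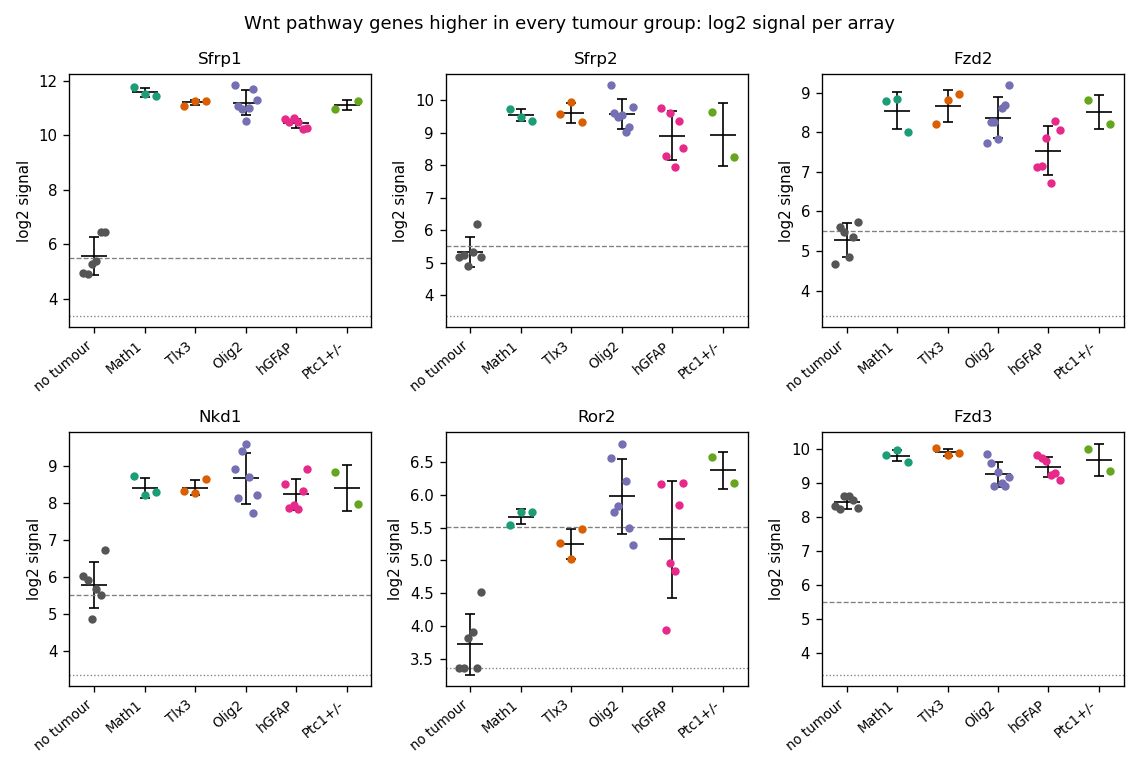
Log2 signal (y axis) of the 6 genes called higher in every tumour group, with 1 point per array, the mean and the SD (bars) for tissue without tumour and each tumour group; the dashed line is the median of the table and the dotted line the floor. For Sfrp1, Sfrp2, Fzd2, Nkd1 and Fzd3 every tumour point lies above every control point, while 1 hGFAP array of Ror2, at 3.95, lies among the controls.

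Among the Frizzled receptors, 6 of the 8 tested were called, 4 higher and 2 lower (52.4% of all genes were called). Fzd2 ran from 4.67 to 5.73 in the control arrays (median 5.42). It stood at 8.80, 8.84 and 8.0 in Math1, at 8.21, 8.82 and 8.96 in Tlx3 and at 8.81 and 8.21 in Ptc1+/- tumours. Olig2 tumours ran from 7.72 to 9.19 (median 8.27) and hGFAP tumours from 6.73 to 8.28 (median 7.50). No tumour array overlapped the controls, and the lowest ones were of the hGFAP group. Fzd2 was 3.04 higher over the tumour groups (SE 0.23, 8.23-fold, limma adjusted p = 3.56e-12), and its other 2 probe sets gave 3.09 and 4.07.

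Fzd3, a receptor known for its part in axon growth and planar polarity, was already bright without tumour, from 8.24 to 8.64 (median 8.42). Signals were 9.84, 9.97 and 9.64 in Math1, 10.03, 9.82 and 9.89 in Tlx3 and 10.02 and 9.35 in Ptc1+/- tumours. The Olig2 arrays lay between 8.93 and 9.85 (median 9.18) and the hGFAP arrays between 9.10 and 9.83 (median 9.48). The groups did not overlap with the controls, but the lowest Olig2 arrays came close to them. The difference over all tumours was 1.19 (SE 0.15, 2.29-fold, limma adjusted p = 5.34e-08).

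Smaller rises were seen for Fzd7 (from 8.0 ± 0.23 in controls, n = 6, to 8.65 ± 0.80 over the tumour arrays, n = 21) and Fzd10 (from 6.32 ± 0.31 to 6.93 ± 0.44), all SD. With the groups weighted equally, Fzd7 rose by 0.84 (limma adjusted p = 0.0126) and Fzd10 by 0.52 (adjusted p = 0.00809). Fzd4, the receptor of norrin in blood vessels, fell by 0.62 (adjusted p = 0.00728), from 6.44 ± 0.22 to 5.85 ± 0.41. Fzd1 fell by 0.37 (adjusted p = 0.0128), from 9.37 ± 0.12 to 9.05 ± 0.25. Tumour and control arrays overlapped for all of these. Taken singly, the groups differed. Fzd7 was called in Ptc1+/- tumours alone (mean 9.67, n = 2), and its mean was 8.17 in hGFAP tumours. Another Fzd7 probe set, at the floor on all 6 control arrays, was called higher in Olig2 tumours (limma adjusted p = 0.00661 over all probe sets). Fzd10 was called in Math1, Olig2 and hGFAP tumours, and its mean was 6.23 in Tlx3 tumours. Fzd4 was called in Tlx3 and Olig2 tumours, and Fzd1 in Ptc1+/- tumours alone. Another probe set of Fzd4, 1419301_at (control mean 6.82), was called lower in each of the 5 tumour groups. Its limma adjusted p over all probe sets ran from 2.43e-04 in Math1 to 0.0422 in hGFAP tumours. Neither Fzd6 (-0.57, adjusted p = 0.0889) nor Fzd9 (-0.34, adjusted p = 0.172) passed the test. Fzd6 was called lower under 6 alternatives, among them the mean of its probe sets (-0.85, adjusted p = 8.32e-04), array weights (-0.70, adjusted p = 0.00953) and the replicate block (-0.65, adjusted p = 0.0369). It was also called without hGFAP replicate 2, Ptc1+/- replicate 2 or control replicate 1 (adjusted p = 0.0390 to 0.0439). Fzd9 was called lower under 3 alternatives: without rescaling (-0.69, adjusted p = 0.0305), without the 7 dimmest arrays (-0.49, adjusted p = 0.0470) and with brightness as a covariate (-0.50, adjusted p = 0.0353). The rises of Fzd7 and Fzd10 were not called on the values without rescaling, with adjusted p of 0.318 and 0.645. Endothelial markers, which cover vessel cells, were lower in tumours for 3 of 7 tested genes, with sums of 442 to 796 in controls and 362 to 704 in tumours, and their part in the fall of Fzd4 was not tested. Fzd5 and Fzd8 did not pass the filter.

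The co-receptors went different ways. Ror2, a receptor kinase of Wnt5a signalling, was at the floor on 3 of the 6 control arrays and reached 4.52 on the highest. It stood at 5.54, 5.73 and 5.73 in Math1, at 5.26, 5.02 and 5.48 in Tlx3 and at 6.57 and 6.17 in Ptc1+/- tumours. In Olig2 tumours the range was 5.23 to 6.77 (median 5.82), and in hGFAP tumours 3.95 to 6.18 (median 5.40). All tumour arrays but a single hGFAP one lay above the highest control, at levels near the median of the table. Ror2 was at least 1.99 higher over the tumour groups (SE 0.28, at least 3.98-fold, limma adjusted p = 5.32e-07). Its second probe set differed by 0.68 and was not called (adjusted p = 0.148 when it stands for the gene). The control means of the 2 probe sets were almost the same, 3.74 for the second and 3.72 for the first. The second was at the floor on 3 of the 6 control and 8 of the 21 tumour arrays.

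Ror1, the other kinase of the pair, went down, from 6.48 ± 0.29 (SD, n = 6) in controls to 5.68 ± 0.51 (SD, n = 21) in tumours. It fell by 0.80 (SE 0.24, limma adjusted p = 0.00537), with overlap between the arrays. Taken by group, Ror1 was called lower in Tlx3 and Olig2 tumours only. Its other probe set that passed the filter differed by -0.39 and was not called (limma adjusted p = 0.268 over all probe sets). On that probe set the hGFAP mean was 5.40, against 5.23 in controls. Lrp6, a co-receptor needed for beta-catenin signalling, stood at 7.81 ± 0.30 in controls and at 8.10 ± 0.50 in tumours, a difference of 0.38 that missed the threshold (adjusted p = 0.0766). It was called higher under 5 alternatives, such as array weights (0.44, adjusted p = 0.00856) and leaving out the 7 dimmest arrays (0.52, adjusted p = 0.00442), and without Olig2 replicate 6 (0.41, adjusted p = 0.0288) or hGFAP replicate 4 (0.41, adjusted p = 0.0387). Among the single groups, Lrp6 was called higher in hGFAP tumours (mean 8.40) and Ptc1+/- tumours (mean 8.73, n = 2). Lrp5 did not pass the filter and reached 4.87 at most.

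Of the ligands 1 of the 9 tested was called, beside 52.4% of all genes, and the roles were not tested against each other. This count rests on the 1 probe set that stood for each gene. Wnt11, a ligand known for signals without beta-catenin, stood at 5.53 ± 0.28 (SD, n = 6) in controls and at 4.85 ± 0.71 (SD, n = 21) in tumours, both near the median of the table or under it. It fell by 0.77 (SE 0.30, limma adjusted p = 0.0317), and the arrays overlapped. Its call was lost when any of control replicates 1, 2, 3 or 5 or Ptc1+/- replicate 2 was left out, with differences of -0.77 to -0.69, and adjusted p-values from 0.0522 to 0.0800. For the other ligands the differences were 0.58 for Wnt4, 0.47 for Wnt7a, 0.18 for Wnt7b, 0.10 for Wnt6, 0.04 for Wnt3a, 0.03 for Wnt8b, -0.25 for Wnt5a and -0.25 for Wnt10a. The control means of the probe sets that stood for these genes ran from 4.73 for Wnt3a to 6.86 for Wnt7b. Most of the ligands were thus measured near or under the median of the table, where a signal can be background. Another probe set of Wnt7a, described below, was brighter in controls, with a mean of 7.84, and was lower in tumours.

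Another 10 ligands did not pass the filter: Wnt1, Wnt2, Wnt2b, Wnt3, Wnt5b, Wnt8a, Wnt9a, Wnt9b, Wnt10b and Wnt16. Their highest signals on any array ran from 4.80 for Wnt3 to 6.08 for Wnt9b. With no filter on low signals, Wnt3 was lower in tumours by at least 0.89 (-0.89, limma adjusted p = 2.73e-04), with a median of 4.54 in controls and of 3.37, the floor, in tumours. On 14 of the 21 tumour arrays and 0 of the 6 controls it was at the floor, and such signals can be background.

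The probe sets of Wnt7a, a ligand that granule neurons are known to release onto mossy fibres, gave different answers. These probe sets, and those of Wnt4, were singled out after their values were seen. Probe set 1423367_at ran from 6.88 to 8.37 in the control arrays (median 7.98) and from the floor to 6.14 in the tumour arrays (median 4.67), with 5 of the 21 tumour arrays at the floor. All tumour arrays lay below all controls, the hGFAP arrays being the nearest. It was lower by at least 3.28 (a difference of -3.28, SE 0.36, limma adjusted p = 1.06e-08 over all 30107 probe sets) and was called lower in each of the 5 tumour groups. Probe set 1447647_at, which stood for the gene because its mean over all arrays was higher, ran from 4.05 to 5.86 in controls and from the floor to 6.95 in tumours and was not called. Markers of mature granule neurons fell on the same arrays, with sums of 14109 to 20449 in controls and 217 to 2232 in tumours, and their part in the Wnt7a difference was not tested.

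Wnt4, a ligand with roles in kidney and gonad development, was likewise uneven. Its probe set 1450782_at was at the floor on 5 of the 6 control arrays and reached 4.34 on the other. In Math1 tumours it stood at 7.57, 6.99 and 6.79, in Tlx3 tumours at 4.38, 5.25 and 6.58 and in Ptc1+/- tumours at 3.37 and 4.21. The Olig2 arrays ran from 6.22 to 8.09 (median 7.42) and the hGFAP arrays from 3.37 to 6.32 (median 3.85). Math1 and Olig2 tumours were thus all well above the controls, while the hGFAP and Ptc1+/- groups overlapped them. It was called higher in Math1, Olig2 and Tlx3 tumours (limma adjusted p = 4.36e-06, 2.00e-08 and 0.00696) and not in hGFAP or Ptc1+/- tumours. The probe set that stood for the gene, 1441687_at, was called in Math1 (1.40 higher, adjusted p = 0.0189) and Olig2 tumours (1.12 higher, adjusted p = 0.0127). Over all tumours Wnt4 was called under 3 alternatives: the mean of its probe sets (1.32, adjusted p = 3.53e-04), the higher floor (0.63, adjusted p = 0.0230) and leaving out the 5 arrays with a high 3' to 5' ratio of the array's control probe sets (0.66, adjusted p = 0.0241).

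**Figure D3:**
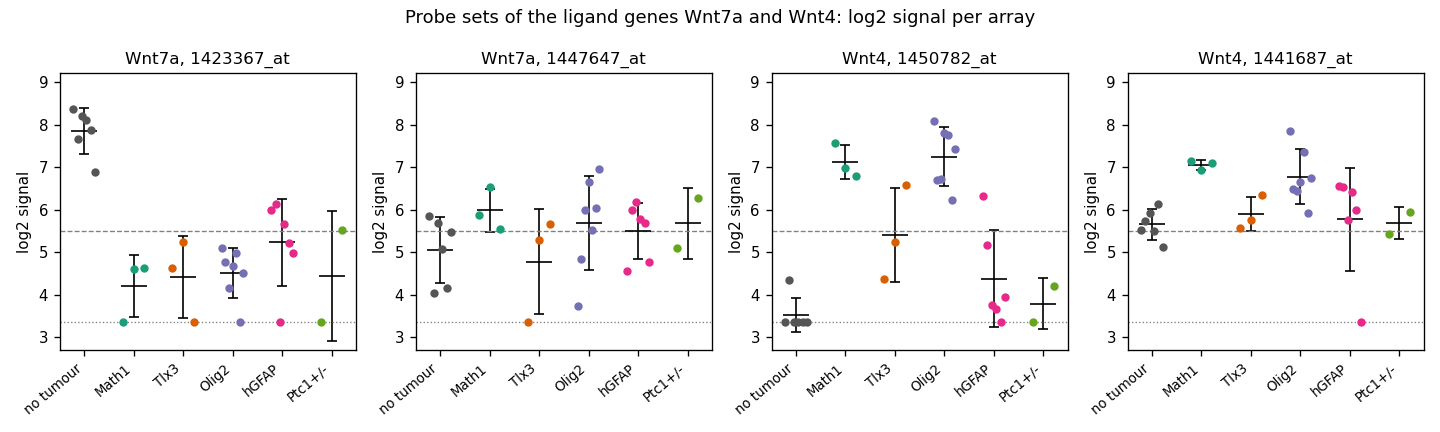
Log2 signal (y axis) of 2 probe sets each of Wnt7a and Wnt4, with 1 point per array, the mean and the SD (bars) for tissue without tumour and each tumour group; the dashed line is the median of the table and the dotted line the floor. The first Wnt7a probe set falls from a control median of 7.98 to a tumour median of 4.67, the second does not separate the groups, and the first Wnt4 probe set is high in Math1 and Olig2 tumours.

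Over all members, 55 of the 93 probe sets passed the filter and were also tested one by one, with 23 called higher, 7 lower and 25 not called (of all 30107 probe sets tested, 46.8% were called, 24.4% higher and 22.4% lower). No gene had a probe set called higher and another called lower. Both probe sets of Fzd4 were lower, by 0.62 and 1.46 (differences of -0.62 and -1.46), and the second one of Fzd6 was called lower as well (-1.13, adjusted p = 0.00537). Fzd1 was split, since its second probe set stood 0.44 higher without being called.

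The output genes did not move as a group. Nkd1, an inhibitor of Dishevelled that Wnt signalling switches on, ran from 4.87 to 6.74 in the control arrays (median 5.80). Signals were 8.73, 8.22 and 8.31 in Math1, 8.32, 8.27 and 8.65 in Tlx3 and 8.84 and 7.97 in Ptc1+/- tumours. Across the Olig2 tumours it ran from 7.74 to 9.60 (median 8.70) and across the hGFAP tumours from 7.85 to 8.91 (median 8.14). All 21 tumour arrays were above all 6 controls. Nkd1 was 2.64 higher (SE 0.24, 6.25-fold, limma adjusted p = 2.11e-10), its 4 probe sets rose by 0.97 to 2.92, and 3 of the 4 separated the arrays without overlap.

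Lgr5, a receptor of R-spondins that raises the response to Wnt ligands, ran from 6.94 to 7.39 in controls (median 7.20). It stood at 7.69, 7.83 and 8.22 in Math1, at 8.09, 7.94 and 7.98 in Tlx3 and at 8.12 and 7.94 in Ptc1+/- tumours. The hGFAP arrays ran from 7.53 to 7.88 (median 7.61) and the Olig2 arrays from 6.97 to 7.72 (median 7.27). Only the Olig2 tumours overlapped the controls. The difference over the tumour groups was 0.59 (SE 0.12, 1.51-fold, limma adjusted p = 1.70e-04), and the gene was called in each group but Olig2 (0.11). On the values without rescaling it was not called (0.24, adjusted p = 0.504).

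Axin2, a scaffold of beta-catenin breakdown and the usual readout of beta-catenin signalling, ran from 6.69 to 7.75 in controls (median 7.50). Signals were 8.01, 8.27 and 7.90 in Math1, 7.11, 7.94 and 8.02 in Tlx3 and 7.73 and 7.80 in Ptc1+/- tumours. Olig2 tumours ran from 6.67 to 8.33 (median 7.71) and hGFAP tumours from 6.35 to 7.80 (median 7.37). The Math1 arrays were the only group wholly above the controls. Axin2 was 0.33 higher over the tumour groups without passing the test (SE 0.22, 95% interval -0.13 to 0.78, limma adjusted p = 0.229), and it was not called in any single group. Without the 7 dimmest arrays, a choice made after seeing the data, the difference was 0.43 and was called (adjusted p = 0.0421). Without rescaling it turned to -0.025 (adjusted p = 0.961), and leaving out 1 array at a time gave 0.20 to 0.41.

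Lef1, a nuclear partner of beta-catenin, ran from 5.16 to 6.07 in controls (median 5.56). It stood at 5.14, 4.40 and 5.17 in Math1, at 4.56, 4.68 and 4.62 in Tlx3 and at 5.36 and 6.08 in Ptc1+/- tumours. Olig2 tumours ran from 3.77 to 5.54 (median 4.97) and hGFAP tumours from 5.03 to 5.83 (median 5.58). Tlx3 tumours alone were wholly below the controls. Over all tumours the difference was -0.46 and was not called (SE 0.22, limma adjusted p = 0.0883), while in Tlx3 (-0.97, adjusted p = 0.0204) and Olig2 tumours (-0.69, adjusted p = 0.0293) Lef1 was called lower. Math1 tumours (n = 3) had the same mean as Olig2 tumours (n = 7), 4.90, without being called. Over all tumours it was called lower without rescaling (-0.78, adjusted p = 0.0350), with array weights (-0.51, adjusted p = 0.0247) and without the 7 dimmest arrays (-0.52, adjusted p = 0.0366).

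Notum, the secreted enzyme that inactivates Wnt ligands and is itself switched on by them, ran from 5.16 to 6.12 in controls (median 5.89). Signals were 4.74, 5.38 and 5.23 in Math1, 4.40, 4.42 and 5.23 in Tlx3 and 5.88 and 6.44 in Ptc1+/- tumours. Those of Olig2 tumours ran from 5.03 to 6.05 (median 5.52) and those of hGFAP tumours from 4.84 to 6.78 (median 5.46). Every group overlapped the controls. It was called lower in Tlx3 tumours (-1.05, limma adjusted p = 0.0163) and not over all tumours (-0.34, adjusted p = 0.226).

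**Figure D4:**
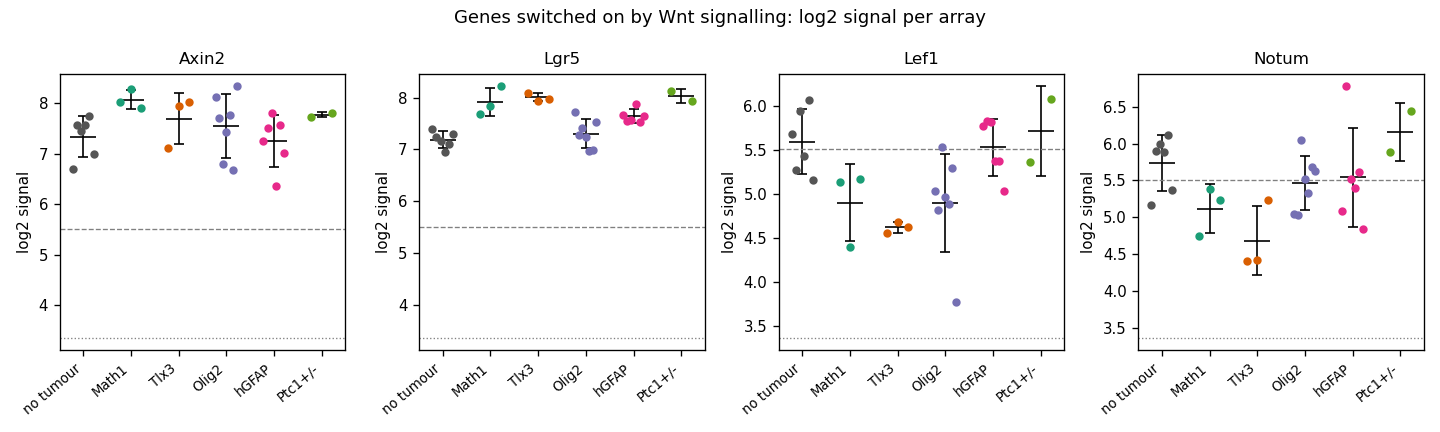
Log2 signal (y axis) of Axin2, Lgr5, Lef1 and Notum, with 1 point per array, the mean and the SD (bars) for tissue without tumour and each tumour group; the dashed line is the median of the table and the dotted line the floor. Lgr5 separates all groups but Olig2 from the controls, while Axin2 and Notum overlap in most groups. Lef1 has its lowest mean in Tlx3 tumours, followed by Math1 and Olig2 tumours (both 4.90).

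Taken by tumour group, 6 of the 31 genes were called higher in all 5 groups: Sfrp1, Sfrp2, Fzd2, Fzd3, Ror2 and Nkd1. Of these, Sfrp1, Sfrp2, Fzd2 and Ror2 had passed the filter through tumour arrays alone, so the filter favoured this count. Among all genes 12.1% were called higher in all 5. None of the 31 was called lower in all 5 groups, against 11.7% of all genes, 22 were called in at least 1 group (63.7% of all genes), and none was called in opposite directions. At an unadjusted limma p under 0.05 the number lower in all 5 groups was 0 as well, and so was the number with opposite directions. The count of genes lower in all 5 groups rests on 1 probe set per gene. Tested singly, probe sets 1423367_at of Wnt7a and 1419301_at of Fzd4 were called lower in each of the 5 groups. The comparisons of single tumour groups share the 6 control arrays. In Math1 tumours 9 genes were higher and 1 lower (37.4% of all genes called, 19.3% higher and 18.1% lower), and with array weights 16 were called, Axin2 among them. In Olig2 tumours 9 were higher and 3 lower (49.6% of all genes, 24.7% higher and 25% lower), and on the values without rescaling 6 were higher and 10 lower. In hGFAP tumours 10 were higher and 0 lower by limma (41.7% of all genes, 22.5% higher and 19.2% lower). There Fzd1 and Ror1, 2 genes, were lower at an unadjusted p under 0.05, and quantile normalization gave 1 lower call. In Ptc1+/- tumours 9 were higher and 1 lower (36.3% of all genes, 17.9% higher and 18.4% lower), and 5 were higher and 6 lower without rescaling. The other splits without rescaling were 6 higher and 0 lower in Math1 and 5 higher and 0 lower in hGFAP tumours. For the counts under these alternatives the share of all genes called is not given here.

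Tlx3 tumours had the most genes lower, 8, beside 7 higher (40.3% of all genes called, 19.7% higher and 20.6% lower). Those lower were the ligands Wnt11 (-1.25), Wnt8b (-1.24) and Wnt5a (-0.91), the receptors Fzd6 (-1.23) and Fzd4 (-1.01), Notum, Lef1 and Ror1 (-0.94). The count of 15 dropped to 7 without Tlx3 replicate 1 and to 8 without Tlx3 replicate 2. It was 9 after quantile normalization (7 higher, 2 lower), and 7 on the values without rescaling (7 higher, 0 lower). The median difference of all genes was -0.08 in this comparison, and the Tlx3 arrays were among the brightest, with trimmed means of 168.8 to 205.96 before rescaling. Wnt5a, the main ligand of Ror2, was also called lower in Math1 tumours (-0.91, limma adjusted p = 0.0454). All its control, Math1 and Tlx3 signals lay under the median of the table, where a signal can be background. Adjusted over all probe sets, it was not called in Math1 or Tlx3 tumours (limma adjusted p = 0.0539 and 0.0506). Nor was its other tested probe set (0.204 and 0.414).

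**Figure D5:**
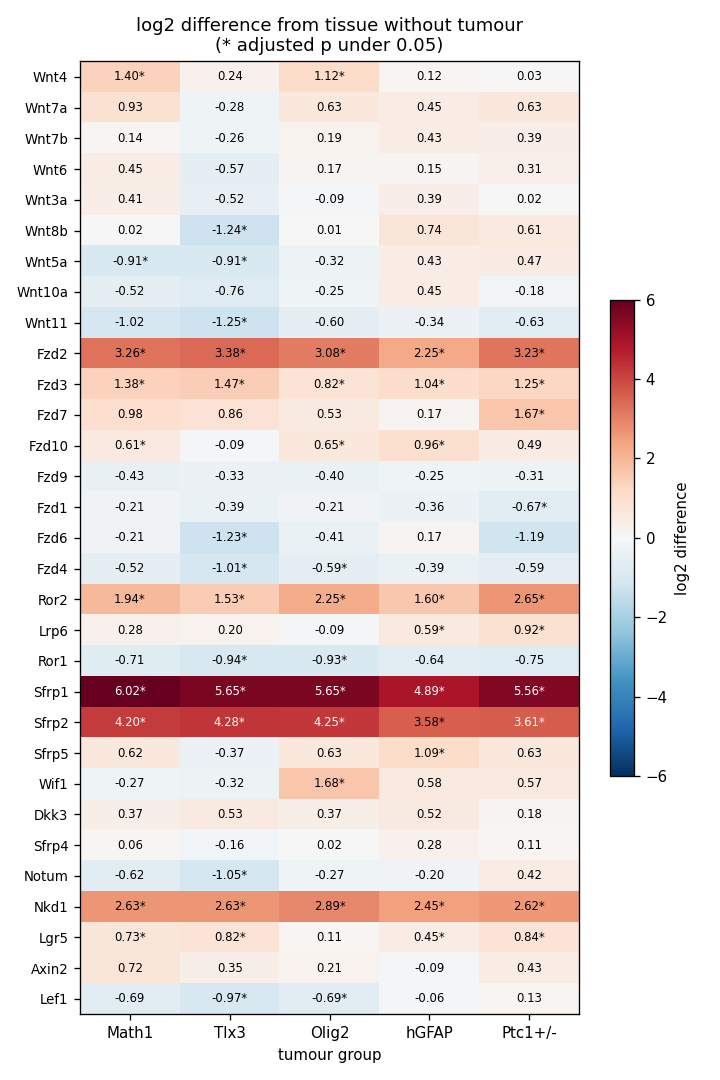
Log2 difference between each tumour group and tissue without tumour for the 31 tested genes (rows, by role), coloured from blue (lower) to red (higher), with an asterisk for a limma adjusted p under 0.05. Sfrp1, Sfrp2, Fzd2, Fzd3, Ror2 and Nkd1 carry an asterisk in all 5 columns, and the Tlx3 column holds 8 of the lower calls.

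Between tumour groups no Wnt gene was called, but few genes of any kind were, 0.259% to 2.99% by comparison. A count of 0 among 31 genes is near such shares. Over the 4 SmoM2 groups together 0 of 31 passed (0.946% of all genes did), and 13 had an unadjusted limma p under 0.05, against 21.1% of all genes. The lowest adjusted p there was 0.0669, for Lgr5 and Wnt5a. With array weights 9 genes passed in this comparison, among them Lgr5, Wnt5a, Sfrp1 and Fzd10, and other alternatives gave between 0 and 4. Shares of all genes called under these alternatives are not given here. Leaving out Olig2 replicate 1 gave 1 call (Lgr5), Olig2 replicate 3 gave 3 (Lgr5, Wnt5a and Wnt8b) and Olig2 replicate 4 gave 2 (Sfrp1 and Wnt5a).

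The comparison of the broader drivers (hGFAP and Olig2) with Math1 and Tlx3 gave 0 of 31 by limma (0.259% of all genes called) and 14 at an unadjusted p under 0.05, against 15.5% of all genes. With array weights 5 were called: Fzd10, Fzd3, Lgr5, Wif1 and Wnt5a. On the values without rescaling 12 were called, 0 higher and 12 lower with the broader drivers. Those values keep the differences in brightness between arrays. Trimmed means ran from 42.58 to 205.45 in Olig2 and 74.05 to 152.93 in hGFAP tumours. In Math1 tumours they ran from 140.13 to 159.52, and in Tlx3 tumours from 168.80 to 205.96. For neither alternative is the share of all genes called given here. Wnt5a stood at 4.16 ± 0.73 (SD, n = 3) in Math1, 4.16 ± 0.48 (SD, n = 3) in Tlx3, 4.75 ± 0.47 (SD, n = 7) in Olig2 and 5.50 ± 0.40 (SD, n = 6) in hGFAP tumours. It was 0.97 higher with the broader drivers (95% interval 0.46 to 1.48, limma adjusted p = 0.0835), without being called. It passed the filter through 2 hGFAP arrays and 1 Ptc1+/- array alone, that is, partly through a group in which it was high. Lgr5 (-0.49, adjusted p = 0.0888), Fzd3 (-0.49, adjusted p = 0.136) and Fzd10 (0.54, adjusted p = 0.142) came next. Wif1 was at or near the floor in Math1 (3.49 ± 0.21) and Tlx3 tumours (3.44 ± 0.12) and stood at 5.44 ± 1.41 in Olig2 and 4.34 ± 1.00 in hGFAP tumours. This difference of 1.43, with arrays at the floor on both sides, was not called either (adjusted p = 0.156), and Olig2 arrays ran from the floor to 7.67. Choroid plexus markers, which mark tissue that can be dissected along with the cerebellum, summed to 530 to 1238 in Math1, 2845 to 6978 in Tlx3, 875 to 15348 in Olig2 and 440 to 11206 in hGFAP tumours, and their part in the Wif1 values was not tested.

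Between hGFAP and Olig2 tumours 0 of 31 were called (2.99% of all genes), with 9 at an unadjusted limma p under 0.05 against 23.1% of all genes. Sfrp1 was 0.76 lower in hGFAP (-0.76, 95% interval -1.24 to -0.28, adjusted p = 0.0613), Lrp6 0.68 higher (adjusted p = 0.0625) and Fzd2 0.83 lower (-0.83, adjusted p = 0.0697). Sfrp5, which was called in hGFAP tumours against the controls, was not among those 9. Without the 5 arrays that had a high 3' to 5' ratio of the array's control probe sets (2 Olig2, 2 hGFAP and 1 control array), 5 members were called: Fzd2, Fzd6, Lef1, Lrp6 and Sfrp1. Leaving out single arrays gave up to 3 calls, among Fzd2, Lrp6 and Sfrp1, when the array was Olig2 replicate 1, 3 or 4, hGFAP replicate 4 or control replicate 6. Ptc1+/- tumours against the 4 SmoM2 groups gave 0 of 31 as well (0.547% of all genes), with 5 at an unadjusted p under 0.05 against 11.7% of all genes. Largest there were Fzd7 (1.04 higher, adjusted p = 0.356) and Notum (0.96 higher, adjusted p = 0.287), with 2 arrays in the Ptc1+/- group. A p-value that misses the threshold does not show that the groups are alike.

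Further genes of the pathway were read beside these, from 5 lists of 88 genes, of which 70 passed the filter; over all tumours 25 were called higher and 12 lower, where 26.8% of all genes were higher and 25.6% lower. The median difference was 0.18, against 0.33 for the 31 surface and output genes and 0.02 for all genes. By list, 5 of 14 genes of ligand secretion and receptor level were higher and 3 lower. In the cytoplasm list 6 of 21 were higher and 3 lower, in the nuclear list 5 of 17 and 2, in the planar polarity list 6 of 12 and 3, and among further Wnt targets 3 of 9 and 1.

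The highest of these were cell cycle and growth genes that Hedgehog signalling is also known to raise. Ccnd2, which codes for cyclin D2, stood 5.65 higher (SE 0.21, limma adjusted p = 1.73e-18). Myc was at the floor on 5 of the 6 control arrays and at least 3.07 higher in tumours (adjusted p = 7.60e-11), and Ccnd1 was 2.53 higher (adjusted p = 2.02e-14). The lowest were Porcn, which attaches the lipid to Wnt ligands (-1.83, adjusted p = 6.35e-09), Sox17, an inhibitor of beta-catenin and marker of vessel cells (-1.52, adjusted p = 3.41e-05), and Lgr4, an R-spondin receptor like Lgr5 (-1.48, adjusted p = 2.28e-07). Chosen after its values were seen, Ctnnb1, the gene of beta-catenin, differed by 0.29 (adjusted p = 0.0477). The call was lost on leaving out any of 17 of the 27 arrays and under 7 of 15 alternatives, among them the replicate block (0.28, adjusted p = 0.0823), and the sign turned on quantile-normalized values (-0.026) and without rescaling (-0.057).

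Promoters are printed for Sfrp2, Nkd1 and Ror2, which rose in every group, and for Fzd7, to show what precedes their start sites. Of the other genes that rose in every group, Sfrp1, Fzd2 and Fzd3 are named only. RefSeq sequences of the GRCm38.p6 build were found for 31 of the 47 genes, in 37 promoters, and 250 bases before each start were searched on both strands. The core of the site of GLI factors, the transcription factors of Hedgehog signalling, was searched as CCACCCA. The core of the site of TCF and LEF factors was searched as CTTTG followed by AA, AT, TA or TT. The first was found in 2 of 37 promoters of the members (5.4%, Fzd7 and Ror2) and in 8.11% of 32851 promoters of all genes. The second was found in 5 of 37 (13.5%, of Dkk1, Fzd7, Lef1, Wnt11 and Wnt5b) and in 14.84% of all. A match is a run of letters and not a bound site, and these shares were close to those of all promoters. The stretches are printed 5′ to 3′ on the gene's strand, ending at the base before the start, with capitals for a match on either strand: Sfrp2 at chr3:83766071-83766320 (plus strand), Nkd1 at chr8:88527383-88527632 (plus), Ror2 at chr13:53286125-53286374 (minus) and Fzd7 at chr1:59481897-59482146 (plus).
Sfrp2: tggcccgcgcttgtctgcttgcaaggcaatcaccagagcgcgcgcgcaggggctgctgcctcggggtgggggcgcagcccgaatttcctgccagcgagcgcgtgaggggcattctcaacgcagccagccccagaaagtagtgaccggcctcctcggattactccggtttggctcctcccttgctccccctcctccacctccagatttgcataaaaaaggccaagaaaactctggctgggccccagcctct
Nkd1: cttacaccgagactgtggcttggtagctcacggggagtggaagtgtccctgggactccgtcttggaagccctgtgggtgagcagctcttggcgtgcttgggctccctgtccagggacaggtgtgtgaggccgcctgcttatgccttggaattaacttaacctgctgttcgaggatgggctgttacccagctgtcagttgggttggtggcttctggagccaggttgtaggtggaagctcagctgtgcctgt
Ror2: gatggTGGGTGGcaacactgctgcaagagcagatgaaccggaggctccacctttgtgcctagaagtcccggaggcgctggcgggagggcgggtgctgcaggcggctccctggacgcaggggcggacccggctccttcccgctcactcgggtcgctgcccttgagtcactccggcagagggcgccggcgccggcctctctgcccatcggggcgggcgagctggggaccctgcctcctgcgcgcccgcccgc
Fzd7: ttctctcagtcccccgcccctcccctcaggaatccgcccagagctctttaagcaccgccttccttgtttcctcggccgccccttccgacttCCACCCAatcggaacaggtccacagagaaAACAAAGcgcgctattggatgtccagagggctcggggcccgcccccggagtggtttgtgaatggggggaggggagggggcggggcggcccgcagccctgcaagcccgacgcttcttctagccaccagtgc
In Ror2 the capitals are the GLI core on the opposite strand, at positions -245 to -239 from the start. In Fzd7 they are the GLI core at positions -159 to -153 and the TCF and LEF core, on the opposite strand, at positions -130 to -124, with no overlap between them. Sfrp2 and Nkd1, which rose in all groups, hold neither run of letters in this window.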

How the data were processed

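Signal intensities of 45101 probe sets on 27 arrays were deposited on a linear scale, and MAS5 is the tool that the submitters' processing notes name (version and scaling not given in the sources used here). Detection calls were not used here, so a low value can be background. All arrays were brought to the same 2% trimmed mean (123.61), a floor was set at the 20th percentile (10.3), and log2 values were taken. A probe set was kept if it exceeded the table's median (45.6) on 3 arrays or more, and the one with the highest mean stood for its gene, for 13527 genes. Probe sets with several genes (932) or not listed (9211) were left out, as were 64 control probe sets. Groups were compared in R 4.3.3 with limma 3.58.1 (1 model with 6 group means over all arrays, empirical Bayes with trend and robust fit), tested on simulated data. P-values were two-sided, except for the F test over the 4 SmoM2 groups, and adjusted by Benjamini-Hochberg over all genes. Group means had equal weight in a contrast.

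Genes given with values per array were those called over all tumours with a difference of at least 1, and Axin2, Nkd1, Lef1, Lgr5 and Notum. Of the further pathway genes, the 3 highest and 3 lowest called were named. The members and lists were chosen with earlier results of these data known. Alternatives changed the scaling, floor, filter, probe set, arrays, moderation, weights and controls, and left out each array in turn. Some were added after seeing the data: leaving out dim or high-ratio arrays, brightness as a covariate, single probe sets and the probe set brightest in controls. Replicate numbers were not taken to pair the arrays. Over 49 pairs of arrays of different groups with the same number, deviations correlated with a median r of 0.034 (-0.34 to 0.28), and 19 exceeded 0.1. For pairs with different numbers the median was 0.004. Such medians do not exclude that some arrays were paired or shared a batch. The number of arrays limits the precision.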

Additional observations from a re-analysis of the deposited data

Results flagged for a closer look

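In the 93 gene and group pairs with 4 to 10 arrays, 7 held an array set apart from its group by Dixon's criterion, where chance gives about 1 in 20, or 4.7. Sfrp2 was 6.20 in control replicate 5, an array of the Mxi1-cre:SmoM2 line, against 4.89 to 5.32 in the other controls, and it was still below every tumour array. Ror1 was 5.92 on the same array, against 6.48 to 6.72 in the other controls, and 4.99 in hGFAP replicate 4, against 5.83 to 6.24. Wif1 was 5.37 in control replicate 2, against 3.37 to 3.63. Lef1 was 3.77 in Olig2 replicate 7, against 4.82 to 5.54. Wnt4 was at the floor, 3.37, in hGFAP replicate 6, against 5.76 to 6.55, and without this array Wnt4 was called over all tumours (0.68 higher, limma adjusted p = 0.00947). Wnt6 was at 3.37 in hGFAP replicate 3, against 4.98 to 5.89.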

How the results depend on the processing

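Sfrp1, Sfrp2, Fzd2, Fzd3 and Nkd1 kept their direction and their call over all tumours under every alternative run, and so did Fzd4 and Ror1. Ror2 lost its call with the probe set brightest in controls, Wnt11 when single arrays were left out and with the replicate block (-0.57, adjusted p = 0.105), Fzd10, Fzd7 and Lgr5 on the values without rescaling, where Fzd1 was further from 0 and also lost its call (-0.72, adjusted p = 0.0502), and Fzd1 turned to 0.036, not called, as the mean of its probe sets. With the replicate number as a block (replicate block), 13 genes were called over all tumours, of which 12 were the same genes, and that block left each of the 0 counts between tumour groups at 0. A filter on the mean over all arrays left Ror2, Wnt11, Lef1, Wif1, Wnt3a, Wnt5a, Wnt6, Wnt8b, Wnt10a and Sox17 untested. Most ligands had signals near background, and 2 Ptc1+/- arrays give little precision.

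Counts of called genes moved by over 1.5 times as follows. Without rescaling they were 6 in Math1, 7 in Tlx3 and 5 in hGFAP tumours, 4 among the SmoM2 groups, 12 for the broader drivers, all lower, and 1 for Ptc1+/- against SmoM2. Quantile normalization gave 9 in Tlx3 tumours. Array weights gave 16 in Math1 tumours, 9 among the SmoM2 groups and 5 for the broader drivers. Among the SmoM2 groups the mean of probe sets gave 4, log2 of signal plus 16 gave 1, no trend or robust fit gave 1, and leaving out the 5 high-ratio arrays gave 2. For hGFAP against Olig2, log2 of signal plus 16 gave 1, the mean of probe sets 2, leaving out the control array of the Ptc1+/- line 1 and leaving out the 5 high-ratio arrays 5. No filter gave 1 for Ptc1+/- against SmoM2 (Fzd8). The cause was not tested. Shares of all genes called under each alternative are not given here, so these counts alone show nothing particular to the Wnt genes.

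Leaving out 1 array at a time gave 12 to 14 calls over all tumours, 8 to 11 in Math1, 7 to 15 in Tlx3, 10 to 13 in Olig2, 8 to 11 in hGFAP and 8 to 11 in Ptc1+/- tumours. Between tumour groups it gave 0 to 3 among the SmoM2 groups, 0 to 3 for hGFAP against Olig2, and 0 in the other 2 comparisons.

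Signs turned mainly for genes that were not called. Wnt7a was -2.72 with the higher floor, -2.64 with log2 of signal plus 16, -1.41 as the mean of its probe sets and -3.28 with the probe set brightest in controls. Without rescaling, Axin2 was -0.025, Sfrp4 -0.29, Wnt3a -0.25, Wnt6 -0.25, Wnt7b -0.17, Wnt8b -0.29 and Ctnnb1 -0.057, while quantile normalization gave -0.026 for Ctnnb1. With brightness as a covariate, Sfrp4 was -0.0007, Wnt3a -0.039 and Wnt6 -0.19. Wnt3a was -0.039 with the higher floor, -0.033 with log2 of signal plus 16, -0.17 without the 7 dimmest arrays and -0.25 without the high-ratio arrays. Wnt6 was -0.14 and -0.10 without those 2 sets of arrays, and Wnt8b -0.039 and -0.18. Wnt8b was -0.14 with array weights and -0.091 without the Ptc1+/- control array, and Wnt5a was 0.066 with the higher floor. Leaving out 1 array gave -0.23 to 0.32 for Wnt3a, -0.086 to 0.26 for Wnt6 and -0.091 to 0.22 for Wnt8b.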
